A study of Mus musculus with 16 samples.

Results

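Ret, its 4 glycosylphosphatidylinositol-anchored co-receptors Gfra1 to Gfra4 and the ligand genes Gdnf, Nrtn and Artn were followed through 16 mouse RNA-Seq libraries. The members were taken by gene symbol, and all 8 were found among the 24411 genes of the tables. 12 libraries were celiac ganglia of 2-week-old mice, in 4 groups. Control ganglia lacked the transgene and were wild-type for Runx1t1 (control wild-type, n = 4) or labelled Runx1t1 heterozygote (control het, n = 3), and MYCN ganglia came from Th-MYCN homozygotes of the same Runx1t1 genotypes (MYCN wild-type, n = 3, and MYCN het, n = 2). The remaining 4 libraries were tumors that arose in homozygotes carrying wild-type Runx1t1, and the labels give no age for them. In the Th-MYCN mouse, kept on a 129/SvJ background, human MYCN is driven by the tyrosine hydroxylase promoter in neuroectodermal cells. The het animals carried an insertion that inactivates a Runx1t1 allele (CBB6-Runx1t1tm1Fc/H). That line was crossed with the Th-MYCN mouse, so 129/SvJ is the background of the Th-MYCN line and need not be that of each library. The labels call the cell type of every library neuroblastoma, ganglia included. No source used here says that libraries of a group came from separate animals, so the p-values measure the spread between these libraries, which may be technical.

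RET is a receptor tyrosine kinase that does not bind its ligands alone. A ligand dimer first binds a GFRα co-receptor, and the complex then brings RET together and switches on its kinase, which signals through adaptors to the RAS-ERK, PI3K-AKT and PLCγ pathways. GFRα1 prefers GDNF, GFRα2 prefers neurturin (Nrtn), GFRα3 prefers artemin (Artn) and GFRα4 prefers persephin (Pspn). In the sympathetic nervous system, artemin acting through GFRα3 and RET guides early migration and axon growth along blood vessels, and RET with GFRα2 is tied to neurons that turn cholinergic.

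Celiac ganglion libraries held 10692299 to 36337191 counts and tumor libraries 27096032 to 38618757; 6 ganglia were under 20000000, among them both MYCN het ganglia. Runx1t1 RNA ran from 2.78 to 4.41 TPM (a length-scaled share of transcripts) in control wild-type ganglia, 4.36 to 6.28 in control het, 7.90 to 70.3 in MYCN wild-type, 8.83 to 16.9 in MYCN het and 29.5 to 55.8 in tumors, so RNA did not mark the het label in either pair of ganglia, and the RNA of an insertion allele need not be lost. A few libraries stood apart. Replicate 2 of the control wild-type ganglia had a summed TPM of 509.8 over 6 lymphocyte markers, against at most 6.67 elsewhere, and its 14 sympathetic neuron markers summed to 9302 TPM, the lowest of the control ganglia. Replicate 3 of the tumors had 5835 TPM over 4 liver markers, against at most 317 elsewhere. Replicate 1 of the MYCN wild-type ganglia had 753 TPM over 5 cycling-cell markers and 8825 over the sympathetic neuron markers. All ganglia carried the sympathetic neuron markers, at 8825 to 27240 TPM in sum, and so did the tumors, at 2533 to 3858; none of the 14 markers was at 0 throughout a group.

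In GENCODE vM21 (GRCm38) the genes lie on different chromosomes: Ret at chr6:118151745-118197718 on the minus strand, Gfra1 at chr19:58235604-58455909 minus, Gfra2 at chr14:70890120-70979838 plus and Gfra4 at chr2:131039632-131043088 minus. The ligand genes are Gdnf at chr15:7810846-7837575 plus, Nrtn at chr17:56751325-56757530 minus and Artn at chr4:117926162-117929763 minus. Gfra1 overlaps the antisense gene Gm16277 and Gfra4 holds the miRNA gene Mir6973b; use of strand in counting is not given in the sources used here, so reads from each pair cannot be told apart.

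The 250 bases before the start sites of Artn, a ligand gene counted in all control ganglia and in 1 tumor, and of Gfra4, a co-receptor gene counted in every library, are printed 5′ to 3′ on the gene's strand from RefSeq (GRCm38.p6), with CpG dinucleotides in capitals. They cover chr4:117929764-117930013 and chr2:131043089-131043338, both minus strand, and end at the annotated 5′ end of each gene; they are shown because they differ in base composition.
Artn: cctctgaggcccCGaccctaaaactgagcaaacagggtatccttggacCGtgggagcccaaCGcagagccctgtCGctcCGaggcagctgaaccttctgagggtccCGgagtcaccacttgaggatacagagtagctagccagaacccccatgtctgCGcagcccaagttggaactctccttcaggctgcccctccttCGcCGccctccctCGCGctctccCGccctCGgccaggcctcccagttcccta
Gfra4: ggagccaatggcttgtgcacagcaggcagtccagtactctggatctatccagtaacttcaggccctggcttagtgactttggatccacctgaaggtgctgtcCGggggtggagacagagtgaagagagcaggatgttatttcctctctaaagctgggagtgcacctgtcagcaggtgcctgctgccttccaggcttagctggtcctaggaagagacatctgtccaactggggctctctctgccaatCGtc
The Artn window held 13 CpG at 63.6% GC, and 68.5% of 32851 RefSeq promoter windows of this length held fewer. The Gfra4 window held 2 CpG at 55.2% GC, and 18.8% of windows held fewer. A further RefSeq start of Gfra4, at base 131042682, had a window with 5 CpG at 54.0% GC, and 44.4% of windows held fewer, so the contrast with Artn depends on the start taken. The E-box CACGTG, a motif that MYC proteins bind and that reads the same on both strands, occurred in none of them, nor in the windows found for Gdnf, Nrtn and Gfra1, while 6.02% of all windows held it. This says only that these letters were not in these windows.

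Tumors were compared with ganglia to ask how expression of the GDNF receptor system differs between normal ganglia and the neuroblastoma of this model. Compared with the 7 control ganglia, tumors had 9.95-fold less Ret RNA and 5.09-fold less Gfra2 RNA, while the difference of Gfra3, the most abundant co-receptor, did not pass the test. edgeR called 3 of the 8 members lower (Ret, Gfra2 and Artn) and none higher, beside 61.4% of all 16665 genes tested (30.6% higher and 30.9% lower). Artn entered the test only through control ganglia, where it was highest, and Gdnf only through tumors, so the calls of these 2 genes, and counts that include them, are given as values and support nothing. Tests were edgeR's quasi-likelihood test with Benjamini-Hochberg adjustment over all genes and a threshold of 0.05.

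Ret, the signaling receptor, was at 221, 50.5, 113 and 176 TPM in the 4 control wild-type ganglia, at 168, 227 and 184 in control het, at 72.0, 128 and 133 in MYCN wild-type, at 149.8 and 126 in MYCN het, and at 17.3, 22.9, 4.53 and 3.1 in the tumors. Every tumor lay below every ganglion, and the lowest ganglion was the library with lymphocyte markers. Of all tested genes, 44.1% did not overlap in normalized counts between tumors and control ganglia. Against MYCN wild-type and MYCN het ganglia 39.7% and 63.0% did not. By mean level the order was control het (193 ± 30.8 TPM, SD, n = 3), control wild-type (140.2 ± 74.3, n = 4), MYCN het (138 ± 17.1, n = 2), MYCN wild-type (111 ± 34.0, n = 3) and tumors (11.96 ± 9.69, n = 4); neighbours among the ganglion groups overlapped, and the tumors stood apart. Against the control ganglia Ret fell by 3.31 on the log2 scale (SE 0.567, adjusted p = 0.000177). Against MYCN wild-type ganglia it fell by 2.78 (SE 0.601, adjusted p = 0.00316) and against MYCN het ganglia by 3.00 (SE 0.644, adjusted p = 0.00195); these comparisons share the tumors. Without the control library that held lymphocyte markers the first difference was −3.44, and without the tumor that held liver markers −3.04. Leaving out each library of that comparison in turn gave −3.85 to −3.00, past the threshold in all 11 fits.

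The tumors themselves were split. Replicates 1 and 2 had 17.3 and 22.9 TPM of Ret and replicates 3 and 4 had 4.53 and 3.1, a gap also present in Gfra2 (8.78 and 15.2 against 2.63 and 1.45 TPM) and Gfra3 (146 and 122 against 74.7 and 43.7). Gfra4 had the opposite order (4.56 and 9.18 against 10.9 and 15.8 TPM), and Gfra1 did not follow the split (0.57, 0.28, 4.85 and 0.32). Sympathetic neuron markers did not follow this split, at 3858, 2665, 2533 and 2945 TPM. In bulk RNA, fewer cells that express a gene and less RNA per cell cannot be told apart. In the comparison in which Ret fell, 12 of 14 sympathetic neuron markers were lower in tumors, 1 was higher and 1 did not pass. Of all genes tested, 30.9% were lower and 30.6% higher there. The median log2 difference of the markers was −2.53, against −0.06 over all genes. Their summed level was 9302 to 27240 TPM in control ganglia and 2533 to 3858 in tumors. Prph, the neuronal filament peripherin, fell by 8.90 on the log2 scale, Slc6a2, the norepinephrine transporter, by 7.18 and Npy, neuropeptide Y, by 5.83. The part of these differences in that of Ret was not tested.

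**Figure D1:**
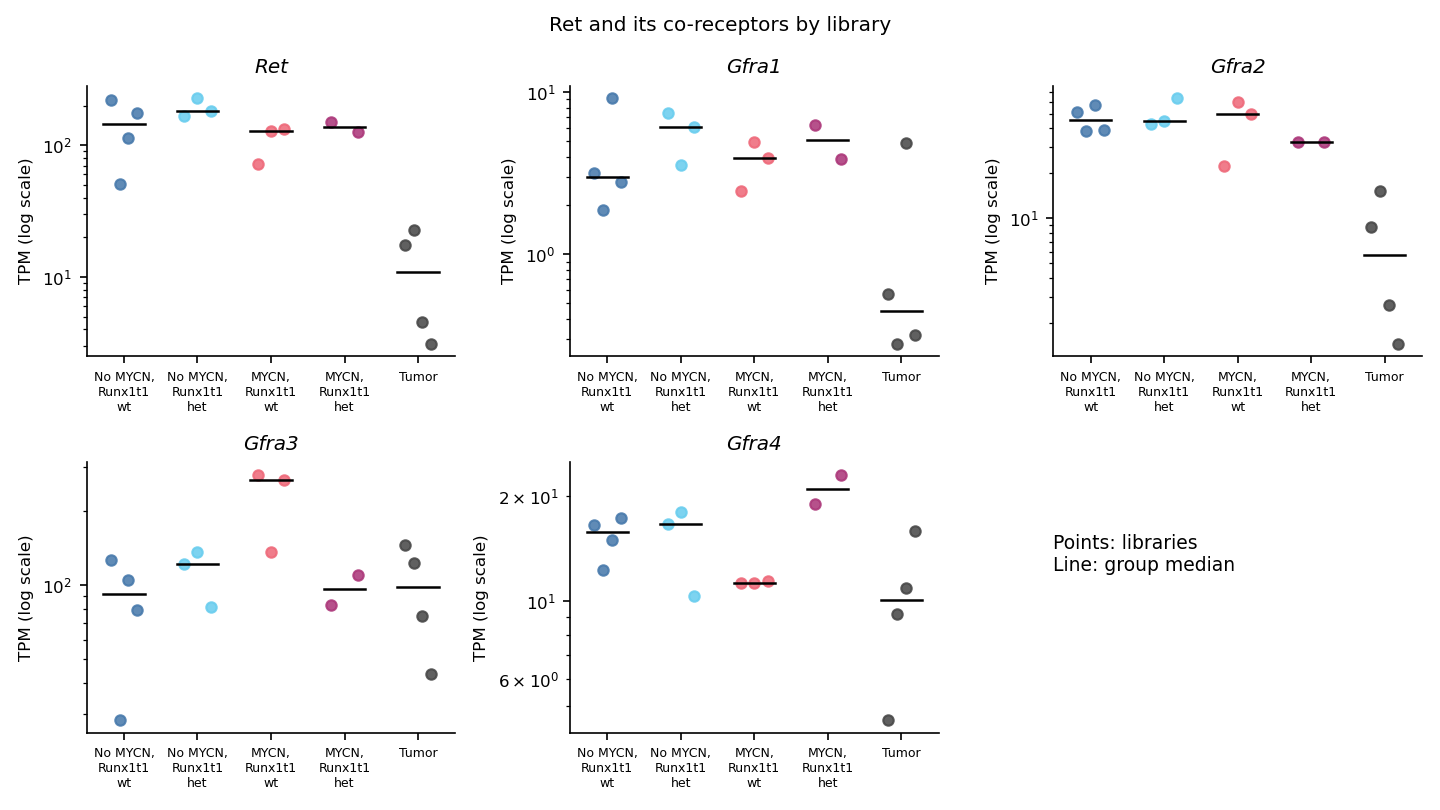
Level of Ret and its 4 co-receptors in each library, in TPM on a log axis; points are libraries, lines group medians, and "No MYCN" stands for the control ganglia. Ret and Gfra2 of all 4 tumors lie below all 12 ganglia, Gfra1 of tumor replicate 3 (4.85 TPM) lies among the ganglia, and Gfra3 is highest in MYCN wild-type ganglia. Between tumors and control ganglia, 44.1% of all tested genes did not overlap in normalized counts.

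Gfra2, the co-receptor for neurturin, was at 51.3, 38.5, 56.9 and 39.3 TPM in control wild-type ganglia, 42.7, 44.8 and 63.5 in control het, 22.4, 59.9 and 49.7 in MYCN wild-type, 32.6 and 32.5 in MYCN het, and 8.78, 15.2, 2.63 and 1.45 in tumors. Again no tumor reached the lowest ganglion, replicate 1 of the MYCN wild-type ganglia. The groups of 44.1%, 39.7% and 63.0% of all tested genes did not overlap between tumors and control, MYCN wild-type and MYCN het ganglia. The means were 50.3 ± 11.5 TPM in control het (SD, n = 3), 46.5 ± 9.09 in control wild-type (n = 4), 44.0 ± 19.4 in MYCN wild-type (n = 3), 32.6 ± 0.0990 in MYCN het (n = 2) and 7.02 ± 6.34 in tumors (n = 4). Neighbours in this order overlapped among the ganglia. The MYCN het ganglia lay below all control het ganglia, where the groups of 22.5% of all tested genes did not overlap in normalized counts, and the difference of −0.67 on the log2 scale did not pass (adjusted p = 1.0). Gfra2 fell by 2.35 on the log2 scale against control ganglia (SE 0.525, adjusted p = 0.00149) and by 2.23 against MYCN wild-type ganglia (SE 0.579, adjusted p = 0.00930). Fitted on the compared groups alone, the latter was −2.26 (adjusted p = 0.0630). Against MYCN het ganglia it fell by 1.72 (SE 0.628, adjusted p = 0.0378), a call that was lost without MYCN het replicate 1 (adjusted p = 0.133), without MYCN het replicate 2 (0.122), without tumor replicate 3 (0.0738), with a replicate block (0.0513), with a depth term (0.0542) and with only the groups compared (0.137), with differences of −2.11 to −1.44.

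Gfra2 and Ret also shared their pattern over all 16 libraries. The likeness of a pair of genes was measured as the root mean square difference of their z-scores of log2(TPM + 1), with 0 for identical patterns, over 14747 genes with a mean of at least 1 TPM. Gfra2 stood at 0.306 from Ret, while Gfra1, Gfra4, Gfra3 and Nrtn stood at 0.877, 1.07, 1.14 and 1.61. The genes nearest to Ret were Tmem50b (0.164), Resp18 (0.180) and Pmp22 (0.231), and their mean levels in the 12 ganglia and the 4 tumors were 74.4 and 12.9, 68.7 and 2.79, and 394 and 37.8 TPM. The genes nearest to Gfra2 were Eif4e3 (0.223), Caskin2 (0.284) and Klf6 (0.304). These values describe libraries that share the contrast between ganglia and tumors, and no test was made of them.

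Gfra1, the co-receptor for GDNF, was low: 3.19, 1.87, 9.15 and 2.80 TPM in control wild-type ganglia, 7.43, 3.56 and 6.09 in control het, 2.44, 4.94 and 3.92 in MYCN wild-type, 6.29 and 3.85 in MYCN het, and 0.57, 0.28, 4.85 and 0.32 in tumors. Tumors 1, 2 and 4 lay below every ganglion, and tumor replicate 3, the library with liver markers, lay among them. By mean level the order was control het (5.69 ± 1.97 TPM, SD, n = 3), MYCN het (5.07 ± 1.73, n = 2), control wild-type (4.25 ± 3.31, n = 4), MYCN wild-type (3.77 ± 1.26, n = 3) and tumors (1.505 ± 2.23, n = 4), with overlap between all neighbours. With all libraries the difference from control ganglia was −1.32 (SE 0.730, adjusted p = 0.131) and that from MYCN wild-type ganglia −0.98 (adjusted p = 0.388). With a replicate block, Gfra1 passed against control ganglia (−1.91, adjusted p = 0.0189). Without tumor replicate 3, Gfra1 fell by 3.24 against control ganglia (adjusted p = 0.000200) and by 2.90 against MYCN wild-type ganglia (adjusted p = 0.00240). All 4 liver markers were called higher in tumors than in control ganglia, beside 30.6% of all genes. Their sums were 65.1, 11.1, 5835 and 1.41 TPM in tumors 1 to 4 against 7.37 to 258 in control ganglia. Only tumor replicate 3 lay above the control ganglia, so these calls rest on that library and do not describe the tumors as a group. The part of liver RNA in the Gfra1 level of that tumor was not tested. The genes nearest to Gfra1 in pattern were Amacr (0.387), Abhd14b (0.404) and Fggy (0.413).

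Gfra3, the co-receptor for artemin (chr18:34689898-34720387, minus strand), was at 126, 28.3, 105 and 79.3 TPM in control wild-type ganglia, 122, 136 and 81.2 in control het, 279, 136 and 266 in MYCN wild-type, 83.0 and 110.1 in MYCN het, and 146, 122, 74.7 and 43.7 in tumors. The tumors overlapped with the control ganglia, and 2 of the 3 MYCN wild-type ganglia lay above every other library. The order by mean was MYCN wild-type (227 ± 79.2 TPM, SD, n = 3), control het (113 ± 28.5, n = 3), tumors (96.7 ± 46.0, n = 4), MYCN het (96.5 ± 19.2, n = 2) and control wild-type (84.7 ± 42.2, n = 4), and all neighbours overlapped, the first pair by less than 1 TPM. Tumors differed from control ganglia by 0.43 on the log2 scale (SE 0.378, adjusted p = 0.338), from MYCN wild-type ganglia by −0.86 (SE 0.460, adjusted p = 0.164) and from MYCN het ganglia by 0.50 (SE 0.538, adjusted p = 0.476). The scale matters for this gene. TPM per normalized count was lower in tumors (library medians over 12267 genes of 0.613 to 0.651) than in control ganglia (0.783 to 0.876), so tumors and control ganglia have equal means in TPM (96.7 and 96.8) and a difference of 0.45 in log2 mean normalized counts. The closest pattern, at 0.432, was that of Zranb1, followed by Plxnb1 (0.540) and 4933400F21Rik (0.544).

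Gfra4, the co-receptor for persephin, was at 16.5, 12.3, 14.9 and 17.2 TPM in control wild-type ganglia, 16.6, 17.95 and 10.3 in control het, 11.2, 11.3 and 11.4 in MYCN wild-type, 19.0 and 22.9 in MYCN het, and 4.56, 9.18, 10.9 and 15.8 in tumors. It had the smallest ratio of highest to lowest level among the receptor genes, and the MYCN wild-type ganglia differed among themselves by an SD of 0.0819 TPM, around a mean of 11.3. In order, the other means were 20.9 ± 2.81 TPM in MYCN het (SD, n = 2), 15.2 ± 2.18 in control wild-type (n = 4), 14.96 ± 4.08 in control het (n = 3) and, below MYCN wild-type, 10.1 ± 4.66 in tumors (n = 4). MYCN het lay above all other groups in TPM, and the remaining neighbours overlapped. In normalized counts MYCN het overlapped with the tumors. It did not overlap with control het or MYCN wild-type ganglia, as 22.5% and 30.5% of all tested genes did not. The difference of 0.45 from control het ganglia (SE 0.400) did not pass. Tumors differed from control ganglia by −0.12 on the log2 scale (SE 0.278, adjusted p = 0.720), which became 0.08 with a term for sex and 0.12 without tumor replicate 1, and by −0.58 between the means in TPM. From MYCN wild-type ganglia they differed by 0.23 (SE 0.338, adjusted p = 0.623; −0.07 without tumor replicate 4) and from MYCN het ganglia by −0.54 (SE 0.375, adjusted p = 0.256). Kcnj12 (0.451), Slit3 (0.467) and Ralgds (0.469) were nearest to it in pattern.

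The means of the ligand genes over the 16 libraries were 1.93 TPM for Nrtn, 0.347 for Artn and 0.0713 for Gdnf, and those of the receptor genes ran from 3.85 for Gfra1 to 121 for Gfra3; in tumors the mean of Nrtn (4.28 TPM) was above that of Gfra1 (1.505). Artn, the artemin gene, was at 0.47, 0.23, 1.43 and 0.58 TPM in control wild-type ganglia, 0.35, 0.43 and 1.00 in control het, 0, 0.50 and 0.31 in MYCN wild-type, 0.11 and 0 in MYCN het, and 0, 0, 0 and 0.15 in tumors. All control ganglia held Artn counts, 90 in sum, whereas 3 of 4 tumors held none and the fourth held 6. A count of 0 in these libraries allows up to 3 counts. Control ganglia were the only libraries in which Artn reached the filter on low counts, so its fitted difference from them, −3.30 on the log2 scale (SE 1.17, adjusted p = 0.0250), is no independent test. The call was also lost without tumor replicate 1 (adjusted p = 0.0557), 2 (0.0572) or 3 (0.0553). Against MYCN wild-type ganglia the difference was −2.02 (SE 1.27, adjusted p = 0.237), with an adjusted p of 0.0246 without tumor replicate 4. Fibroblast markers moved with it, with 7 of 7 lower in tumors. Their sums were 1728 to 7951 TPM in control ganglia and 174 to 511 in tumors. So did 10 of 11 glia markers, with sums of 4511 to 7870 and 944 to 3996. Of all genes tested, 30.9% were lower in tumors in this comparison. No marker of either list was at 0 in all tumors, and 3 of the glia markers reached the filter in fewer than 2 tumors. Their part in the Artn difference was not tested.

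Nrtn, the neurturin gene, was at 0, 0.95, 0.93 and 1.60 TPM in control wild-type ganglia, 2.41, 1.54 and 0.79 in control het, 0.24, 1.78 and 1.07 in MYCN wild-type, 1.77 and 0.70 in MYCN het, and 0, 12.03, 3.18 and 1.91 in tumors. The tumors held both the highest value and a 0, so they spanned the range of the ganglia. Tumors differed from control ganglia by 2.31 on the log2 scale (SE 0.988, adjusted p = 0.0554) and from MYCN wild-type ganglia by 2.44 (SE 1.32, adjusted p = 0.168). The first difference passed with DESeq2 (2.34, adjusted p = 0.0347) and without the ribosomal RNA gene Rn45s in the table (2.37, adjusted p = 0.0497), and both passed without tumor replicate 1, in which no Nrtn was counted (2.73, adjusted p = 0.00828, and 2.85, adjusted p = 0.0453). With a replicate block the first difference was 1.43 (adjusted p = 0.326). Without tumor replicate 2, which held 203 of the 275 Nrtn counts of the tumors, the difference from control ganglia was 0.94 (adjusted p = 0.441). Mrpl2 (0.595), Crb1 (0.622) and Baiap3 (0.641) were nearest to Nrtn in pattern.

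Gdnf was at 0.34, 0.21, 0.08 and 0.06 TPM in tumors, from 19, 15, 4 and 4 counts. It was at 0, 0, 0.16 and 0.04 TPM in control wild-type ganglia, 0, 0.13 and 0 in control het, 0 and 0.12 in MYCN het, and 0 in all 3 MYCN wild-type ganglia. The ganglia held 16 Gdnf counts in sum, and 8 of 12 held none. Pooled over the 4 tumors, the 42 Gdnf counts were 8.51-fold above a floor of 3 counts pooled over the MYCN wild-type ganglia. Tumors 1 and 2 held most of these counts, and counting error in the tumors is left out. The value is a description and not a lower bound for each tumor. Tumors 1 and 2 were the only libraries in which Gdnf reached the filter on low counts, and without either it was not tested, so the adjusted p of 0.0345 is no independent test. It was above the threshold without MYCN wild-type replicate 3 (0.0986) or 4 (0.106), with a replicate block (0.0609) and with a depth term (0.0556). The difference from control ganglia was 2.20 (SE 1.08, adjusted p = 0.0953), with an adjusted p of 0.0494 without control wild-type replicate 3 and of 0.0276 without control het replicate 3.

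**Figure D2:**
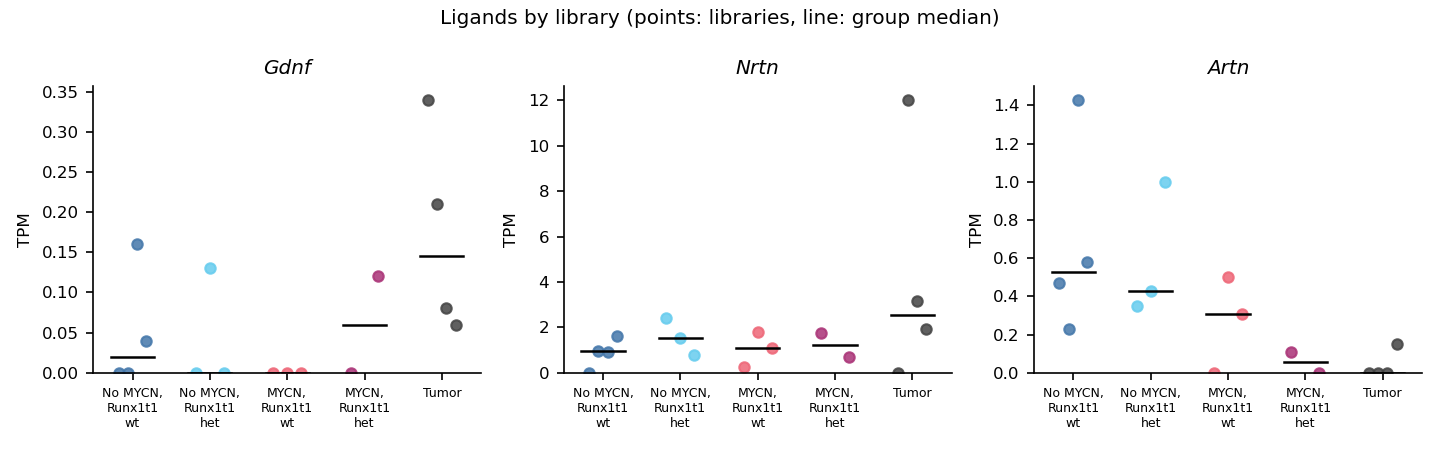
Level of the ligand genes Gdnf, Nrtn and Artn in each library, in TPM on linear axes that differ between panels; points are libraries and lines group medians. Artn is above 0 in all 7 control ganglia and at 0 in 3 of 4 tumors, and tumors hold both the highest value of Nrtn (12.03) and a value of 0.

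Between tumors and MYCN wild-type ganglia, edgeR called Ret and Gfra2 lower and, with the limit given for it, Gdnf higher, beside 34.5% of all genes (14.0% higher and 20.5% lower). Between tumors and MYCN het ganglia 2 passed (Ret and Gfra2, both lower), beside 45.5% of all genes (22.0% higher and 23.5% lower). Over all genes, the 5755 called against MYCN wild-type ganglia became 3549 without MYCN wild-type replicate 3, and the 7582 called against MYCN het ganglia became 4313 without MYCN het replicate 1.

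MYCN ganglia were compared with control ganglia to ask how these genes differ with the transgene in ganglia of 2-week-old mice. None of the 8 members passed in the comparison of 5 MYCN with 7 control ganglia, where edgeR called 0.0420% of all genes; no member had an unadjusted p under 0.05 and DESeq2 called none. The 7 genes called became 720 without MYCN wild-type replicate 3, 192 without control wild-type replicate 2, 21 without MYCN het replicate 1, 4 without control wild-type replicate 1 or 4, and 0 without MYCN het replicate 2 or any control het library. Ret differed by −0.43 on the log2 scale (SE 0.461, adjusted p = 0.766), Gfra1 by −0.19 (adjusted p = 0.934; 0.15 without control wild-type replicate 3), Gfra2 by −0.37 (adjusted p = 0.789), Gfra3 by 0.61 (SE 0.359, adjusted p = 0.614) and Gfra4 by 0.03 (adjusted p = 0.978; −0.07 without control het replicate 4 and −0.06 without MYCN het replicate 2). Artn, with 0 to 0.50 TPM in MYCN and 0.23 to 1.43 in control ganglia, differed by −2.42 (SE 1.13, unadjusted p = 0.0505, adjusted p = 0.530).

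Among wild-type Runx1t1 ganglia alone, Gfra3 was at 279, 136 and 266 TPM with MYCN and at 126, 28.3, 105 and 79.3 without it, and these groups did not overlap, as those of 9.17% of all tested genes did not in normalized counts. The difference was 1.49 on the log2 scale, or 2.82-fold (SE 0.463, unadjusted p = 0.00614, adjusted p = 0.114), so it did not pass with edgeR, which called no member and 0.936% of all genes in this comparison. These 156 genes became 1811 without MYCN wild-type replicate 3, 675 without control wild-type replicate 2 and 0 without any other library of the comparison. Gfra3 was the member with an unadjusted p under 0.05, and DESeq2 called it (1.48, adjusted p = 0.0293). It also passed in edgeR without MYCN wild-type replicate 3 (1.77, adjusted p = 0.0344). Without the control library that held lymphocyte markers, in which Gfra3 was lowest, the difference was 1.22 (adjusted p = 0.106). The 2 MYCN ganglia with the higher Gfra3, replicates 1 and 4, had 753 and 357 TPM over the cycling-cell markers and 8825 and 14150 over the sympathetic neuron markers, and replicate 3 had 49.1 and 17150. All 5 cycling-cell markers had an unadjusted p under 0.05 in this comparison and none passed after adjustment; their part in the Gfra3 difference was not tested. Ret differed by −0.31 (SE 0.589, adjusted p = 0.815) and Gfra4, whose groups did not overlap, by −0.39 (SE 0.340, adjusted p = 0.558).

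**Figure D3:**
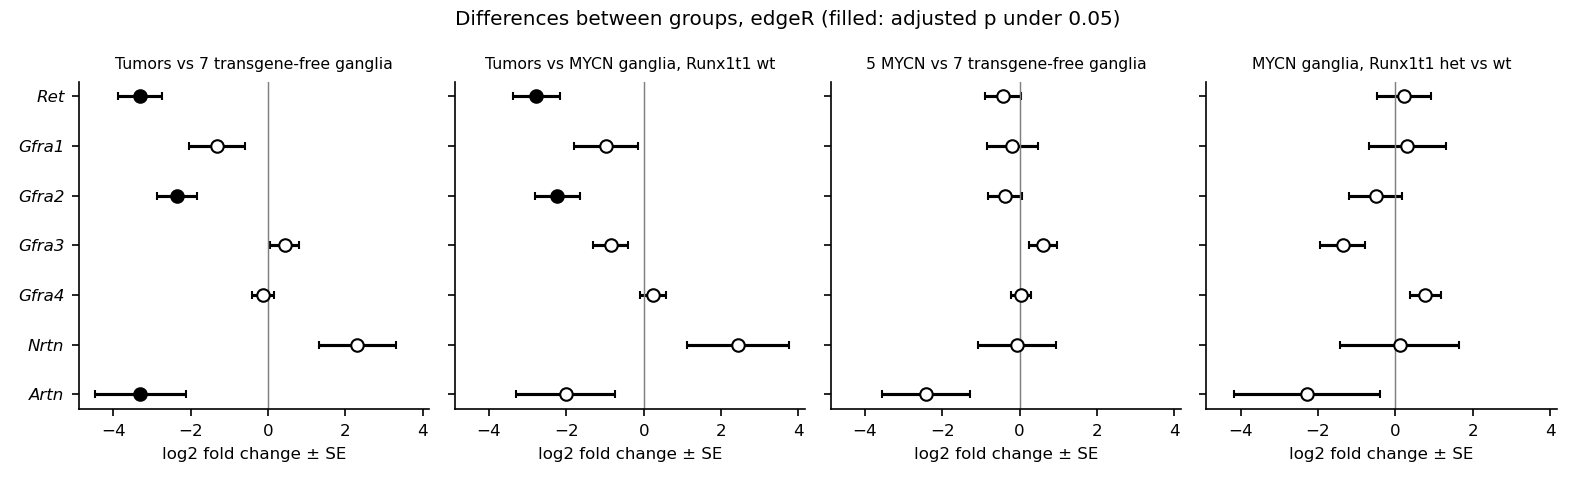
Log2 differences with SE from edgeR for 7 members in 4 comparisons; filled points passed an adjusted p of 0.05, and "transgene-free" stands for the control ganglia. Gdnf, absent from all MYCN wild-type ganglia, is left out because its fitted value there is no estimate of size. Ret and Gfra2 are filled against control ganglia and against MYCN wild-type ganglia, Artn, which was tested only through the control ganglia, against those, and no point is filled in the 2 comparisons among ganglia.

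The het label was examined within each MYCN genotype. Between MYCN het and MYCN wild-type ganglia no member passed, where edgeR called 0.0120% of all genes (2 genes, which became 320 without MYCN wild-type replicate 3 and 0 without any other library) and DESeq2 called no member; 1 member, Gfra3, had an unadjusted p under 0.05. Gfra3 was lower by 1.36 in the MYCN het ganglia (SE 0.582, unadjusted p = 0.0352, adjusted p = 0.381), at 83.0 and 110.1 TPM against 136 to 279. Gfra4 was higher by 0.78 (SE 0.399, adjusted p = 0.434), at 19.0 and 22.9 TPM against 11.2 to 11.4. Ret differed by 0.22 (SE 0.696, adjusted p = 0.934). Gfra3 and Gfra4 were the 2 of the 8 members whose groups did not overlap, as those of 30.5% of all tested genes did not. Both MYCN het libraries, and 1 of the 3 MYCN wild-type libraries, held under 20000000 counts. In het ganglia MYCN went with a Gfra3 difference of −0.27 (SE 0.560, adjusted p = 1.0) and a Ret difference of −0.54 (SE 0.710, adjusted p = 1.0), in a comparison with 0% of all genes called, 242 genes at an unadjusted p under 0.05 and 14 called by DESeq2. The groups of 4 of the 8 members did not overlap there (Ret, Gfra2 and Artn lower and Gfra4 higher with MYCN), as those of 22.5% of all tested genes did not. The difference between the MYCN effects on Gfra3 with and without the het label was −1.77 (SE 0.737, unadjusted p = 0.0313, adjusted p = 0.845), with 0% of genes called, 937 at an unadjusted p under 0.05 and 31 called by DESeq2. Without the transgene, het and wild-type ganglia differed by −0.31 to 0.74 over the 8 members and none passed with either tool or had an unadjusted p under 0.05; there edgeR called 0% of all genes, with 687 at an unadjusted p under 0.05, and DESeq2 called 5.

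Since TPM is per length, the co-receptors could be set beside each other within a library. Gfra3 made up most of the summed co-receptor TPM in 11 of the 12 ganglia and in all tumors, and its share was higher in tumors than in control ganglia, with a lower share of Gfra2. The shares of a library sum to 100% and the mean TPM of Gfra3 was equal in tumors and control ganglia, so its higher share restates the lower Gfra2 and is not a separate result. Gfra3 took 64.0, 34.9, 56.5 and 57.2% in control wild-type ganglia, 64.6, 67.3 and 50.4% in control het, 88.6, 64.1 and 80.4% in MYCN wild-type, 58.9 and 65.0% in MYCN het, and 91.3, 83.2, 80.3 and 71.3% in tumors. No tumor overlapped with a control ganglion. The mean was 81.5 ± 8.26% in tumors (SD, n = 4) and 56.4 ± 11.1% in control ganglia (n = 7), a difference of 25.1 percentage points (exact two-sided permutation p = 0.00303, the smallest that this design allows; adjusted over 16 tests 0.0162). Without control wild-type replicate 1 the difference was 26.4 points (adjusted p = 0.0508) and without tumor replicate 1 it was 21.9 points (adjusted p = 0.128); fewer libraries also raise the smallest p that can be reached. The share of Gfra2 was 5.26 ± 3.66% in tumors and 30.96 ± 9.37% in control ganglia, lower by 25.7 points (exact permutation p = 0.00303, adjusted 0.0162, higher in 7 of 7 control ganglia than in any tumor). The share of Gfra1 differed by −1.34 points (exact permutation p = 0.233, adjusted 0.373). The share of Gfra4, which was not tested, was 2.86, 6.24, 11.7 and 25.8% in tumors 1 to 4 and 6.40 to 15.2% in control ganglia.

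Ret was also set against the co-receptors. Since Gfra3 made up most of their sum and had equal means, the difference in this ratio between tumors and control ganglia restates the lower Ret and is not a separate result. The log2 ratio of Ret to the summed co-receptor TPM was −3.20, −2.68, −4.36 and −4.31 in tumors, and −0.72 to 0.34 in control ganglia. MYCN wild-type ganglia lay between, at −2.13, −0.73 and −1.31, and MYCN het ganglia at 0.09 and −0.43 lay among the control ganglia. Tumors differed from control ganglia by −3.54 (exact two-sided permutation p = 0.00303, adjusted 0.0162). From MYCN wild-type ganglia they differed by −2.25, with no overlap (exact permutation p = 0.0286, the smallest that 4 against 3 allows, adjusted 0.110). The 5 MYCN ganglia differed from the 7 control ganglia by −0.80 in this ratio (exact permutation p = 0.0467), by 14.98 points in the share of Gfra3 (p = 0.0480) and by −12.4 points in that of Gfra2 (p = 0.0354), each with an adjusted p of 0.110. Between MYCN het and MYCN wild-type ganglia the ratio differed by 1.22 (exact permutation p = 0.2; the smallest that 2 against 3 allows is 0.1).

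**Figure D4:**
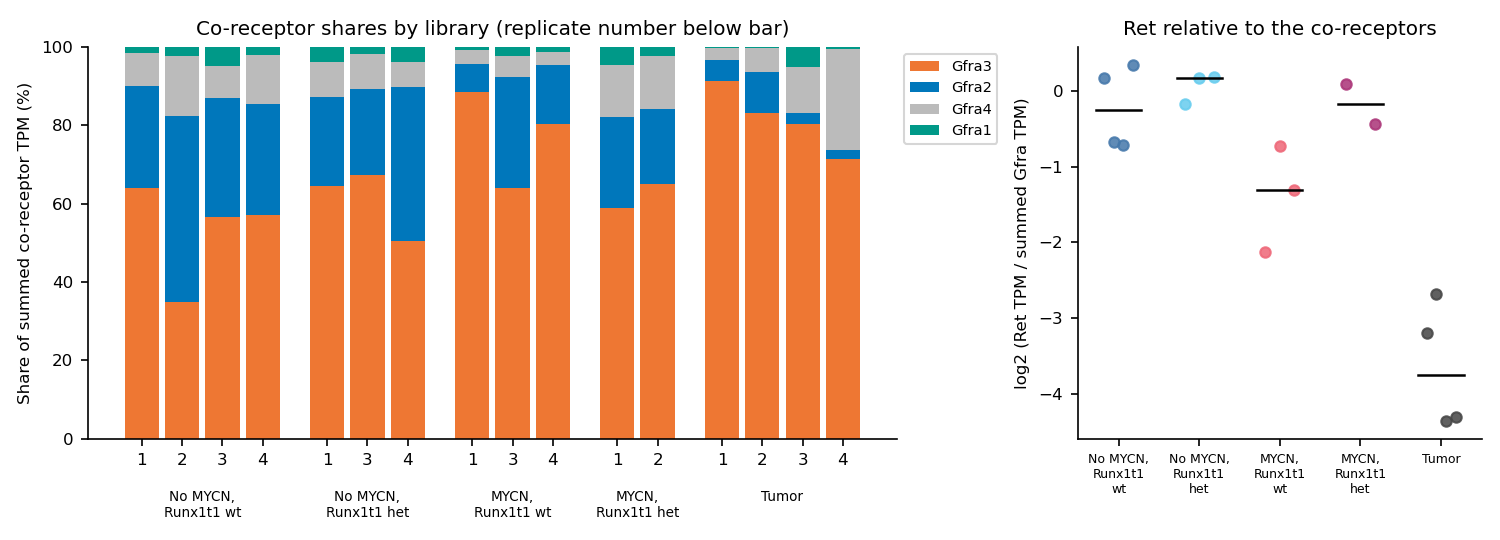
Left, share of each co-receptor in the summed TPM of Gfra1 to Gfra4, in percent, with a bar for each library and its replicate number below; right, log2 of Ret TPM over that sum, with points for libraries and lines for group medians. The 4 tumors have 71.3 to 91.3% Gfra3 and a ratio of −4.36 to −2.68, outside the ranges of the control ganglia.

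Other genes of the pathway were counted from lists; the median over all genes was −0.06 against control ganglia and −0.01 against MYCN wild-type ganglia. Among 12 other ligands, receptors and modulators, 10 were tested between tumors and control ganglia: 5 were lower, 1 was higher and 4 did not pass, with a median of −0.80, beside 30.9% of all genes lower and 30.6% higher. The higher one, named after its value was seen, was Gdf15, a stress-induced ligand of the TGF-β family, which had 3 to 51 counts in a tumor and at most 9 in a ganglion and entered the test only through tumors, so its call supports nothing. Ptprz1, a receptor phosphatase that binds pleiotrophin, fell by 4.98 on the log2 scale (SE 0.620, adjusted p = 1.35e-05), with means of 33.3 TPM in control wild-type ganglia and 0.860 in tumors. Sorl1, a sorting receptor that takes up GDNF with GFRα1, fell by 2.62 (SE 0.379) and Sdc3, a heparan sulfate proteoglycan that binds GDNF, by 0.86 (SE 0.167). Against MYCN wild-type ganglia 4 of 10 were lower (20.5% of all genes), with Ptprz1 lower by 4.70, Sorl1 by 1.76 and Sdc3 by 0.66, the last lost without MYCN wild-type replicate 3 (adjusted p = 0.0836). Pspn, the GFRα4 ligand, had group means of 0.375 to 1.52 TPM and at most 9 counts in a library, and Gfral, the receptor for GDF15, had no count in any library.

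Of 36 adaptors and effectors of RET, 12 were lower in tumors than in control ganglia, 7 were higher and 17 did not pass, with a median of −0.10, beside 30.9% of all genes lower and 30.6% higher; the share lower was near that of all genes. Shc3, the neuronal member of the SHC family, had means of 65.3 and 83.6 TPM in control wild-type and control het ganglia, 28.3 in MYCN wild-type, 81.1 in MYCN het and 0.193 in tumors (log2 difference from control ganglia −8.05, SE 0.594). Dok5, which binds phosphorylated RET, had 15.7, 18.7, 9.24, 20.0 and 0.0950 TPM in the same order, with no count in 3 tumors. Both reached the filter on low counts in every ganglion and in no tumor, so their levels are a description and their calls, here and against MYCN wild-type ganglia, support nothing. Rap1gap, which inactivates the small GTPase RAP1, fell by 2.73 (SE 0.255) and Shc1, the widely expressed SHC adaptor, by 2.57 (SE 0.211). Against MYCN wild-type ganglia 8 were lower, 27 did not pass and 1, the adaptor Crkl (named after its value was seen), was higher by 0.53 (SE 0.135), beside 20.5% of all genes lower and 14.0% higher. The groups of Crkl overlapped in TPM and not in normalized counts. Rap1gap was lower by 2.11 and Dok4, another DOK adaptor, by 2.07; the fitted differences of Shc3 and Dok5 were −6.70 and −6.25.

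Of 14 tested genes that report or restrain ERK signaling, 11 were lower in tumors than in control ganglia, none was higher and 3 did not pass, with a median of −1.58, beside 30.9% of all genes lower. Spry4, a Sprouty inhibitor of receptor signaling, was at 49.6 ± 20.2 TPM in control wild-type ganglia (SD, n = 4), 53.9 ± 5.49 in control het (n = 3), 22.1 ± 9.07 in MYCN wild-type (n = 3), 51.4 ± 2.39 in MYCN het (n = 2) and 1.48 ± 0.277 in tumors (n = 4), a log2 difference between tumors and control ganglia of −4.68 (SE 0.309, adjusted p = 2.39e-07). Etv5, an ETS factor induced by RET in other tissues, fell by 2.59 (SE 0.423) and Dusp6, the phosphatase that switches off ERK, by 2.56 (SE 0.267). Etv4, another such ETS factor, had a fitted difference of −4.09 (SE 0.794) but reached the filter on low counts in ganglia only, so its call, within the 11, supports nothing. Compared with MYCN wild-type ganglia, 7 of 14 were lower and none was higher, beside 20.5% of all genes lower and 14.0% higher, with Spry4 lower by 3.48, Etv5 by 2.02 and Spred3, a Sprouty-related inhibitor, by 1.87; Etv4 (−3.80), with the same limit, is within the 7. Between MYCN and control ganglia none of the 14 passed with edgeR, in all ganglia (2 at an unadjusted p under 0.05, beside 1574 of 16665 genes) or in those with wild-type Runx1t1 (5, beside 3302), nor did any gene of the other 3 pathway lists. Between MYCN het and MYCN wild-type ganglia none of the 14 passed either, 7 had an unadjusted p under 0.05, beside 2094 of all genes, and the median was 0.87; their summed level was 459 and 491 TPM in the MYCN het and 186, 335 and 260.2 in the MYCN wild-type ganglia. In the comparison of tumors with control ganglia, 12 of 14 sympathetic neuron, 10 of 11 glia and 7 of 7 fibroblast markers were lower too. The part of these, and of Ret, in the levels of the ERK genes was not tested.

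Among 16 tested transcription factors and neural crest genes tied to Ret, 8 were lower in tumors than in control ganglia, 6 were higher and 2 did not pass. The median was −0.89, beside 30.9% of all genes lower and 30.6% higher. Against MYCN wild-type ganglia 7 were lower, 1 was higher and 8 did not pass. The median there was −0.59, beside 20.5% of all genes lower and 14.0% higher. Sox10, a factor of glia and neural crest that can drive Ret, fell by 5.65 (SE 0.505) and Hand1 by 5.43 (SE 0.890). Tfap2a had a fitted difference of −4.57 (SE 0.895) and reached the filter in 1 tumor and in every ganglion, so its call supports nothing. Insm1, a zinc finger factor of neuroendocrine precursors, was higher by 7.90 (SE 1.22) in tumors than in control ganglia. Its means were 0.882 and 0.443 TPM in control wild-type and control het ganglia and 91.4 in tumors. MYCN ganglia held it too, with means of 61.85 TPM in MYCN wild-type and 11.96 in MYCN het. The highest MYCN wild-type ganglion (154.87 TPM) lay above the highest tumor (113.61).

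**Figure D5:**
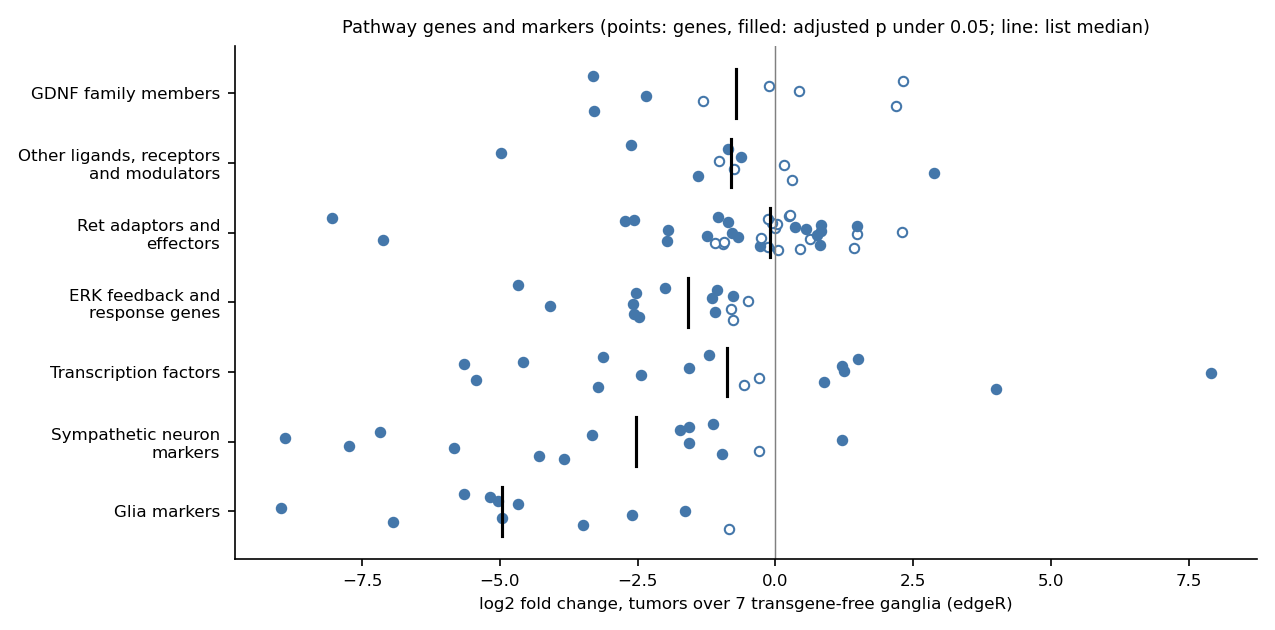
Log2 difference between tumors and the 7 control ganglia for the members, 4 lists of pathway genes and 2 lists of cell markers; points are genes, filled where the adjusted p was under 0.05, and vertical lines are list medians. The median of the ERK feedback genes is −1.58, of sympathetic neuron markers −2.53 and of glia markers −4.96.

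Cholinergic genes, which mark the sympathetic neurons that RET and GFRα2 are tied to, had lower fitted values in tumors than in control ganglia (4 of 4 called, beside 30.9% of all genes). Chat and Slc5a7 reached the filter on low counts in no tumor and Slc18a3 in 1, so the calls of these 3 genes, and the counts of 4 that include them, are a description and support nothing. Their summed level was 2.72 to 106 TPM in control ganglia, 21.3 to 123 in MYCN wild-type, 3.44 to 20.6 in MYCN het and 0.0900 to 3.32 in tumors. Slc5a7, the choline transporter, had no count in any tumor and 0.31 to 10.2 TPM in control ganglia, and Vip, a neuropeptide of these neurons, fell by 5.51 on the log2 scale (SE 1.29). Against the MYCN wild-type group 4 of 4 were called lower (20.5% of all genes), and against MYCN het ganglia 1 of 4, Slc5a7 (23.5% of all genes), with the same limit.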

How the data were processed

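RNA from 12 celiac ganglia and 4 tumors was sequenced as total RNA (SMARTer Stranded; the labels say polyA RNA). The authors aligned reads to mm10 with STAR in 2 passes and estimated expression with RSEM; the deposited values are estimated counts and TPM per gene, and the annotation is not given in the sources used here. "Hom" in column names was read as wild-type Runx1t1, as the matching labels say. Expected counts were rounded and tested with edgeR 4.0.16 (R 4.3.3; quasi-likelihood F test, TMM, filterByExpr, all 5 groups in 1 fit, Benjamini-Hochberg over 16665 of 24411 genes, threshold 0.05); SE is the log2 difference over the square root of F. All 8 genes passed the filter, Gdnf only through tumors and Artn only through control ganglia. Shares and ratios used TPM and exact permutation tests. DESeq2 1.42.0, other normalizations, filters, covariates and left-out libraries were alternatives. Besides the 8 genes, at most 4 genes per list and comparison were named by a rule. They were taken by size of difference among called genes whose groups did not overlap and whose mean was at least 1 TPM. Gdf15 and Crkl were named outside this rule, after their values were seen. Pspn, Gfral and Chat, and Slc18a3 against control ganglia, were also named outside it. Libraries held 10692299 to 38618757 counts, and intervals and floors cover counting error only. The genes and lists were chosen with earlier results of these data known. Some genes of the lists are not reported here by name.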

Additional observations from a re-analysis of the deposited data

Results flagged for a closer look

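Gfra1 in tumor replicate 3 was at 4.85 TPM, far from the 0.28 to 0.57 of the other 3 tumors, and its share of the summed co-receptor TPM there was 5.21%, against 0.190 to 0.522%. Artn in tumor replicate 4 was at 0.15 TPM, from 6 counts, where the other 3 tumors had none. Each was flagged because 1 library lay far from the rest of its group of 4, by a criterion that chance meets in about 1 of 20 groups of normally spread values, a rate that does not hold for Artn with its 3 values of 0.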

How the results depend on the processing

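The fall of Ret in tumors kept its direction and call against all 3 sets of ganglia under every alternative fit and left-out library run for single genes. Both MYCN het libraries were under 20000000 counts, so the set of deeper libraries holds none of them. The other results depended on settings as follows, and the cause was not tested. With only libraries over 20000000 counts, tumors differed from control ganglia by −24.85 points in the Gfra2 share, 23.67 points in the Gfra3 share and −3.635 in log2 Ret to co-receptors (adjusted p = 0.114 each, the smallest that 4 against 4 libraries gave here, so this says nothing of stability), and from MYCN wild-type ganglia by −0.188 points in the Gfra1 share. Fitting only the groups compared left 1 of the 8 genes called against MYCN wild-type and 1 against MYCN het ganglia. A depth term left 1 against MYCN het, and DESeq2 called 1 between MYCN and control wild-type ganglia. In the main fit 34.5%, 45.5% and 0.936% of all genes were called against MYCN wild-type, against MYCN het and between the wild-type ganglia. These counts are not read as a result about the members. A sex term turned Gfra4 to 0.0788 (tumors against control) and −0.00737 (MYCN against control ganglia). Over all genes, DESeq2 called 356 against 7 for MYCN against control, 1285 against 156 with wild-type Runx1t1, and 264 against 2 for MYCN het against MYCN wild-type.

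Leaving out 1 library at a time gave 2 to 4 called members against control and 2 to 4 against MYCN wild-type. It gave 1 to 2 against MYCN het, and 0 to 1 between MYCN and control wild-type ganglia. With all libraries, 61.4%, 34.5%, 45.5% and 0.936% of all genes were called in these comparisons, in this order. The member counts are not read as a result about the members. Shares against control ranged from −27.4 to −22.93 points (Gfra2) and 21.53 to 28.52 (Gfra3), and the Ret ratio from −3.858 to −3.299; without tumor replicate 1, the Gfra2 share (−25.8) and the ratio (−3.69) had an adjusted p of 0.0667, at the smallest p that 3 against 7 allows. Against MYCN wild-type the Gfra1 share ranged from −1.073 to 0.600 and the Gfra3 share from −2.953 to 9.281, and between MYCN het and MYCN wild-type the Gfra2 share from −0.449 to 10.13. Gfra4 ranged from −0.432 to 0.119 (tumors against control), −0.0739 to 0.477 (against MYCN wild-type) and −0.0726 to 0.129 (MYCN against control), and Gfra1 from −0.349 to 0.149 in the last.

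Equal replicate numbers were not taken as pairing the samples, though for some groups this is not settled. Of 25 same-numbered pairs, 7 had deviations correlated over 0.1 (range −0.315 to 0.319, median −0.0143). The 4 pairs of control wild-type ganglia and tumors were all over 0.1 (0.148 to 0.319), while the 3 pairs of control het ganglia and tumors were not (−0.140 to 0.0119). With the replicate number as a block, 4 genes were called against control, 2 against MYCN wild-type and 2 against MYCN het. The 4 include Artn, which entered the test only through control ganglia. Without the block, 61.4%, 34.5% and 45.5% of all genes were called in these comparisons, in this order. Gfra1 passed against control (−1.91, adjusted p = 0.0189) and against MYCN het ganglia (−2.58, adjusted p = 0.0226), and calls were lost for Gfra2 against MYCN het (0.0513) and for Gdnf (0.0609) and Sdc3 (0.0545) against MYCN wild-type ganglia. Under the block Gfra1 turned to 0.0936 in MYCN against control, and Ret to −0.195 in MYCN het against MYCN wild-type ganglia. A filter of 10 counts in every library left Gdnf, Nrtn and Artn untested.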
